A study of Mus musculus with 6 samples.

Results

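Axon guidance genes of 4 ligand and receptor systems were followed in the gastrocnemius, a calf muscle, of mice with a muscle-specific neurturin transgene. The genes were the protein-coding entries named as semaphorins of classes 3 to 7, plexins, ephrins, Eph receptors, Slits, Robos, netrins or Unc5 receptors. The rule took 63 of the 25344 genes measured, 34 ligands and 29 receptors, without using their values. The 29 counted as receptors include Unc5cl, which is named after the Unc5 receptors but is not a guidance receptor. Dcc and Epha8 were not analysed here.

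The 3 HSA-NRTN libraries came from mice with an NRTN transgene, and the 3 WT libraries came from their wild-type littermates. The transgene is driven by the promoter of human alpha-skeletal actin, a gene of differentiated muscle fibres. Neurturin belongs to the GDNF family of secreted growth factors, and the series asks how it links fibre metabolism to the motor neurons that supply the fibres. Age, sex, founder line and the number of animals behind a library are not stated in the labels, so the p-values cover the spread from library to library and nothing else.

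Guidance molecules steer growing axons and also act in vessels and immune cells. Semaphorins bind plexins, and most class 3 semaphorins need the co-receptors Nrp1 and Nrp2. Ephrins and Eph receptors signal in both directions between touching cells, netrins bind Dcc, Neo1 and Unc5 receptors, and Slits bind Robos. In adult mouse muscle, Sema3a has been described in terminal Schwann cells, the glia that cap the nerve ending, and ephrin-A3 (Efna3) on slow fibres.

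Levels are given in FPKM, reads per kilobase of gene scaled to the library's reads in genes, as deposited. Libraries held 28580513, 50291845 and 30562889 reads in genes in HSA-NRTN and 27418154, 31543531 and 35243260 in WT. The 10 most abundant genes took 18.4% to 20.7% of the reads in HSA-NRTN and 22.6% to 23.7% in WT, and dividing reads by the authors' size factors instead moved every ratio of HSA-NRTN to WT by -0.30 on the log2 scale (less for low genes once 1 FPKM is added). Member results are therefore given under both scalings. The transgene check held in every library, with Nrtn at 178, 201 and 169 FPKM in HSA-NRTN and at 3.21, 1.70 and 4.33 FPKM in WT (log2 change 5.54 ± 0.22 SE, limma, adjusted p = 1.54e-06). Summed FPKM of 10 skeletal muscle fibre markers lay between 28187 and 31124 in HSA-NRTN and between 43703 and 48449 in WT, and none of them was at 0.

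Of the 63 genes, 27 averaged at least 1 FPKM over the 6 libraries and were tested with limma on log2(FPKM + 1), and 36 lay below that level. Sema4a, Sema6b and Epha2 passed the filter only through their HSA-NRTN level, as did 672 of all 10755 genes tested. Another 115 genes passed only through WT. For such genes the filter fixed which group had the higher mean, though not the call. Of the 672 genes, 547 were called higher, and Epha2 was not called. In HSA-NRTN, 16 of the 27 rose and 3 fell (19 of 27, 70.4%; adjusted p under 0.05), beside 53.3% of all 10755 genes tested (41.6% higher and 11.7% lower). With the size factors, 11 were higher and 4 lower (55.6%), beside 51.0% of all genes (21.1% higher and 29.9% lower), which is a share close to that of all genes. Limma-voom on reads recovered from the FPKM gave 11 higher and 5 lower, beside 52.6% of all genes (21.9% higher and 30.7% lower). Without the filter, 19 of the 63 were higher and 4 lower, beside 27.1% of 25344 genes (22.1% higher and 5.01% lower). The median log2 change of the 27 was 0.39, against 0.18 for all genes, and with the size factors 0.13 against -0.05. Calls were spread over ligands (11 higher and 2 lower of 18 tested) and receptors (5 higher and 1 lower of 9 tested).

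Under both scalings, 11 members rose, namely Sema4a, Ntn4, Sema7a, Plxnd1, Plxnb2, Sema6b, Efnb1, Sema3b, Sema3g, Ephb4 and Efnb2, and 3 fell, namely Unc5a, Sema3c and Sema4d. Of the 11, Sema4a and Sema6b were tested only through their HSA-NRTN level. A further 5 were called higher in FPKM only. Among the 27, the values of the 3 HSA-NRTN libraries all lay above those of WT for 16 members and all below for 3 in FPKM, beside 47.0% and 15.2% of all genes (62.1% together). With the size factors the counts were 12 and 6, beside 24.6% and 35.4% (60.0% together). HSA-NRTN replicate 1 was the lowest HSA-NRTN library for 20 of the 27 members, beside 52.5% of all genes tested in FPKM, and for 16, beside 32.7%, with the size factors.

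**Figure D1:**
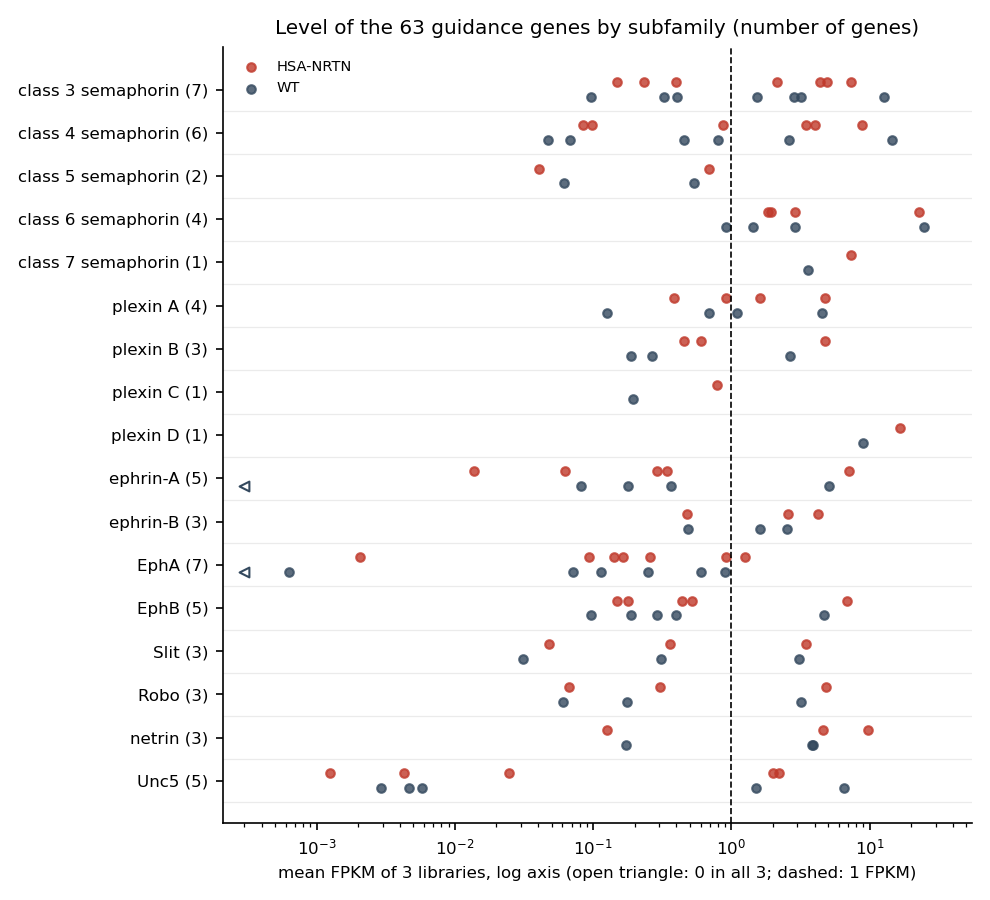
Mean FPKM over 3 libraries (log axis, HSA-NRTN above WT) of the 63 genes by subfamily, with the line at 1 FPKM marking the level from which genes were tested. Levels ran from under 0.01 FPKM to 22.7 FPKM in HSA-NRTN and 24.9 FPKM in WT, both for Sema6c.

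**Figure D2:**
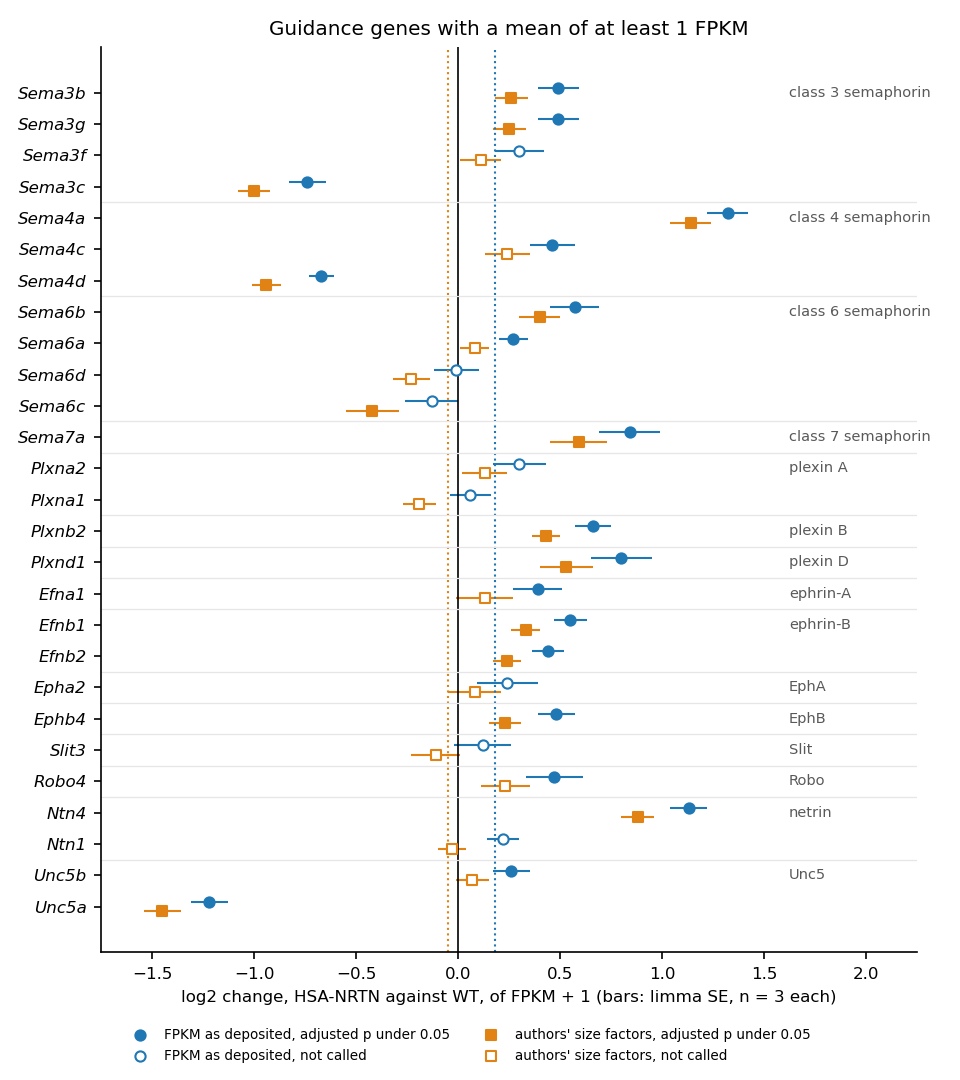
Log2 change, HSA-NRTN over WT, of the 27 tested genes with the FPKM as deposited and with the authors' size factors (bars, SE; filled, adjusted p under 0.05; dotted lines, median of all genes). Every gene sits lower with the size factors, and 11 genes stay called higher and 3 lower under both.

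In FPKM, the largest log2 changes among the tested members were those of Sema4a, Unc5a and Ntn4, a receptor that fell and 2 ligands that rose. Their promoter windows, 250 bases before the RefSeq start (GRCm38.p6, gene strand, 5′ to 3′), are shown because these genes carry those changes. Sema4a lies on the minus strand at chr3:88461183-88461432, upstream of the outermost of its 4 RefSeq starts. Unc5a lies on the plus strand at chr13:54949161-54949410, and Ntn4 on the plus strand at chr10:93640799-93641048, where it overlaps 0 annotated exons but lies within the span of 1 of the 2 Ntn4 transcripts in GENCODE M21, since the table's gene start is 368 bases before the RefSeq start. Capitals mark GGGCGG, the core bound by SP1, on either strand (CCGCCC where it lies on the other strand).
Sema4a: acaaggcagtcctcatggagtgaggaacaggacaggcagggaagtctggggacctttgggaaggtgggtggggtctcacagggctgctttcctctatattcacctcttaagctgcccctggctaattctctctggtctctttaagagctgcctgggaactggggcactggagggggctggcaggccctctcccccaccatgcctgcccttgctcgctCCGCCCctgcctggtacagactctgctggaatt
Unc5a: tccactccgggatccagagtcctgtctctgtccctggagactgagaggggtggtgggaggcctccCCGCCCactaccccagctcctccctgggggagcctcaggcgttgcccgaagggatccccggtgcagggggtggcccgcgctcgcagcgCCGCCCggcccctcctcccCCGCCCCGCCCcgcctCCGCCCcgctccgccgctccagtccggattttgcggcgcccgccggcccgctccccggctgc
Ntn4: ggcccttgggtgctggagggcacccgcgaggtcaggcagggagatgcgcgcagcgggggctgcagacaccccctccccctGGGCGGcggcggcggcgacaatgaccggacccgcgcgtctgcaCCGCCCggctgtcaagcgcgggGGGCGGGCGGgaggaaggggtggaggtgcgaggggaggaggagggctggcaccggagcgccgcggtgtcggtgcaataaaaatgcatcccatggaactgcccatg

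The windows held 1 SP1 core in Sema4a, 5 in Unc5a and 4 in Ntn4, with 2 that overlap each other in each of the last 2 genes, and 32.7% of the 32841 RefSeq windows of this length held at least 1. Their GC content was 59.6%, 76.8% and 73.2%, in the same order, against a median of 52.4% over all windows. The E-box CANNTG, the ERR motif TNAAGGTCA and the CRE core TGACG were searched on both strands and are not in these letters; 66.2%, 1.14% and 17.8% of all windows hold them. The NFAT core GGAAA has 1 match in Sema4a, apart from the SP1 core, and none in the others, against 55.6% of all windows. A match is a stretch of letters and not a bound site.

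In FPKM, single semaphorins changed while the totals of the family overlapped between the groups. That overlap is lost with the size factors, which put every HSA-NRTN total below every WT total. The 20 semaphorins summed to 69.2, 80.3 and 73.6 FPKM in HSA-NRTN and to 79.1, 71.4 and 71.7 FPKM in WT. Within that total, 7 of the 12 tested rose and 2 fell in FPKM, beside 41.6% and 11.7% of all genes, and 5 were higher and 3 lower with the size factors, beside 21.1% and 29.9%.

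Sema4a, a transmembrane semaphorin known from dendritic and T cells, lies at chr3:88435959-88461182 (GRCm38, as in the table) and had 3.52, 3.55 and 3.41 FPKM in HSA-NRTN and 0.985, 0.563 and 0.871 FPKM in WT. The groups were far apart, with means of 3.49 ± 0.075 and 0.806 ± 0.218 FPKM (SD, n = 3 each), a 4.33-fold difference and a log2 change of 1.32 ± 0.10 (limma, adjusted p = 2.89e-05; 1.14 with the size factors). Sema4a entered that test only through its HSA-NRTN level. In limma-voom on genes with at least 10 reads over the 6 libraries, added after the data were seen, its log2 change was 1.85 (adjusted p = 3.08e-06). Sema4d, the class 4 ligand of plexin-B1, moved the other way. The gene, at chr13:51685529-51793747, had 8.72, 9.08 and 8.63 FPKM in HSA-NRTN and 15.1, 14.6 and 14.1 FPKM in WT (-0.67 ± 0.06, limma, adjusted p = 9.84e-05; -0.94 with the size factors). No library of one group reached the other group for either gene, and the ratio of Sema4a to Sema4d within a library was 0.404, 0.391 and 0.395 in HSA-NRTN and 0.0654, 0.0386 and 0.0619 in WT. Sema4c was higher in FPKM only, at 4.22, 4.65 and 3.16 FPKM in HSA-NRTN and 2.64, 2.50 and 2.66 FPKM in WT (0.46 ± 0.11, limma, adjusted p = 0.00946; adjusted p = 0.107 with the size factors).

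Among the secreted class 3 semaphorins, Sema3c was the most abundant and fell. The gene, at chr5:17574281-17730268, had 6.76, 6.96 and 8.29 FPKM in HSA-NRTN and 13.1, 12.2 and 13.1 FPKM in WT (-0.74 ± 0.09, limma, adjusted p = 0.000264; -1.0 with the size factors). Sema3g, best known from endothelium, and Sema3b rose, each by 0.49 on the log2 scale (limma, adjusted p = 0.00376 and 0.00338; 0.25 and 0.26 with the size factors). Sema3g had 4.12, 5.16 and 5.47 FPKM in HSA-NRTN and 3.35, 3.07 and 3.16 FPKM in WT. The ratio of Sema3g to Sema3c was 0.609, 0.742 and 0.659 in HSA-NRTN and 0.255, 0.251 and 0.240 in WT. Sema3a, the classic repellent of motor and sensory axons, was under the tested level, at 0.207, 0.232 and 0.267 FPKM in HSA-NRTN and 0.347, 0.290 and 0.344 FPKM in WT. Every HSA-NRTN library lay below every WT library, and limma-voom on the recovered reads, a test added after the data were seen, called Sema3a lower (log2 change -0.78, adjusted p = 0.00233).

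Sema7a, the membrane-anchored semaphorin that binds plexin-C1 and beta1 integrins, had 5.77, 6.95 and 9.38 FPKM in HSA-NRTN and 4.14, 3.22 and 3.47 FPKM in WT (0.84 ± 0.15, limma, adjusted p = 0.00231; 0.59 with the size factors). The groups did not overlap, though the HSA-NRTN libraries were widely spread. Of the transmembrane class 6 semaphorins, Sema6b rose, with 1.40, 2.26 and 1.90 FPKM in HSA-NRTN and 1.05, 0.845 and 0.849 FPKM in WT (0.57 ± 0.12, limma, adjusted p = 0.0047; 0.40 with the size factors). Sema6b was tested there only through its HSA-NRTN level, and limma-voom with at least 10 reads gave 0.75 (adjusted p = 0.00662). Sema6c, the most abundant of all 63 genes, had 23.2, 26.3 and 18.7 FPKM in HSA-NRTN and 27.8, 24.3 and 22.5 FPKM in WT. Its groups overlapped in FPKM, but with the size factors every HSA-NRTN library lay below every WT library. The call of Sema6c depended on the scaling too (-0.13 ± 0.13, limma, adjusted p = 0.403; -0.42, adjusted p = 0.0294 with the size factors). Sema6d was level in FPKM (-0.01, limma, adjusted p = 0.933) but was called lower in limma-voom on the recovered reads (-0.31, adjusted p = 0.0403). The authors' deposited table also has Sema6d lower (-0.31, adjusted p = 0.0463). Size-factor scaling moved Sema6d to -0.23 without a call (limma, adjusted p = 0.0574). Sema3f differed by 0.30 (adjusted p = 0.062) and was called higher without HSA-NRTN replicate 1 (adjusted p = 0.00284). Both class 5 semaphorins were low, with Sema5a, the higher one, at 0.517, 0.832 and 0.706 FPKM in HSA-NRTN and 0.507, 0.543 and 0.551 FPKM in WT, which overlap.

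**Figure D3:**
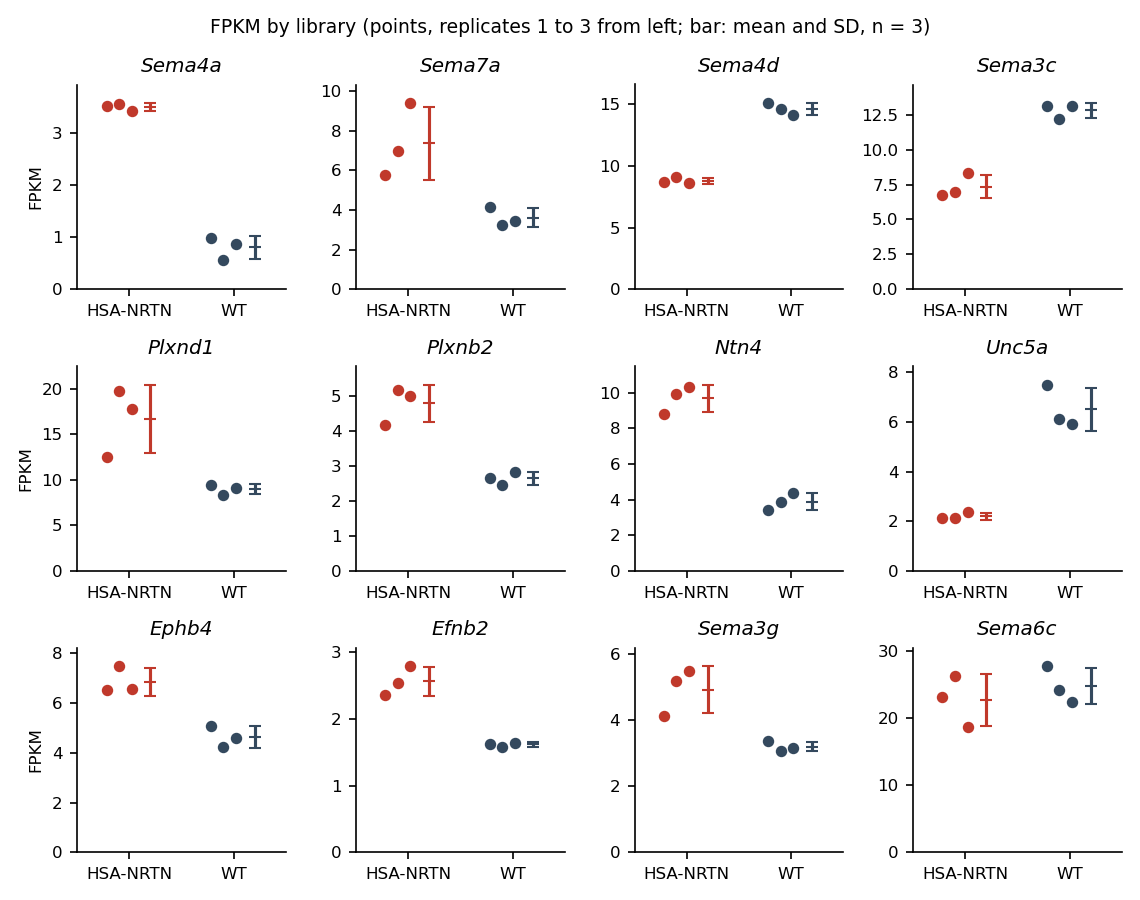
FPKM of 12 members in each library (points) with mean and SD (bars, n = 3), HSA-NRTN left of WT. Sema4a, Ntn4, Sema4d, Sema3c and Unc5a separate the groups with little spread in HSA-NRTN, whereas Plxnd1 and Sema7a spread widely there and Sema6c overlaps.

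Of the semaphorin receptors, 2 of the 4 plexins tested rose and 0 fell (limma; the other 2, Plxna1 and Plxna2, had an adjusted p over 0.05). Beside them, 41.6% of all genes were higher and 11.7% lower in FPKM. The plexin counts were the same with the size factors, beside 21.1% and 29.9% of all genes. With only 4 plexins tested, these counts do not set the family apart from all genes. The 9 plexins summed to 24.5, 35.5 and 32.9 FPKM in HSA-NRTN and to 19.1, 17.5 and 19.5 FPKM in WT, and Plxnd1 made the largest contribution. Plxnd1, a receptor with a known part in vessel patterning, had 12.5, 19.8 and 17.8 FPKM in HSA-NRTN and 9.45, 8.35 and 9.14 FPKM in WT (0.80 ± 0.15, limma, adjusted p = 0.00266; 0.53 with the size factors). Plxnb2, a receptor of class 4 semaphorins, had 4.18, 5.19 and 5.01 FPKM in HSA-NRTN and 2.67, 2.46 and 2.83 FPKM in WT (0.66 ± 0.09, limma, adjusted p = 0.000564; 0.43 with the size factors). Neither gene's groups overlapped. Plxna1, a partner of neuropilins, did not pass the test (0.06 ± 0.10, limma, adjusted p = 0.651; -0.19 with the size factors), at 4.06, 5.46 and 4.80 FPKM in HSA-NRTN and 4.38, 4.44 and 4.77 FPKM in WT. An antisense gene, Gm26811, covers 10.7% of the Plxna1 exons, so reads of the 2 cannot be told apart there if the strand was not kept, which the labels do not say. Plxna2 differed by 0.30 (adjusted p = 0.0846) and was called higher without HSA-NRTN replicate 1 (adjusted p = 0.00467). Of the other tested members, Sema4c shared the largest part of its exons with another annotated gene, 7.27%.

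The plexins under 1 FPKM were tested in limma-voom with at least 10 reads over the 6 libraries. In that test 7356 of 19634 genes were called (37.5%; 19.1% higher and 18.4% lower). Plxnc1, the receptor of Sema7a, was higher, at 0.641, 0.726 and 1.00 FPKM in HSA-NRTN and 0.157, 0.152 and 0.272 FPKM in WT (log2 change 1.70, adjusted p = 0.000228). Plxna3, Plxnb1 and Plxnb3 were higher too (1.24, 0.98 and 0.85; adjusted p = 0.0335, 0.00329 and 0.00756), while Plxna4 was not called (0.13, adjusted p = 0.457). Of the co-receptors, Nrp2 had 2.42, 3.65 and 3.94 FPKM in HSA-NRTN and 1.54, 1.6 and 1.58 FPKM in WT (0.74 ± 0.13, limma, adjusted p = 0.00229; 0.53 with the size factors). Nrp1 had 5.59, 8.90 and 8.57 FPKM in HSA-NRTN and 4.65, 4.27 and 4.84 FPKM in WT (0.62 ± 0.15, limma, adjusted p = 0.00907; 0.36 with the size factors). Plxnd1, Nrp1 and Nrp2 thus rose together, each lowest among HSA-NRTN libraries in replicate 1.

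Ntn4 rose and the netrin receptor Unc5a fell. The 3 netrins summed to 13.2, 15 and 15.1 FPKM in HSA-NRTN and to 7.52, 7.55 and 8.61 FPKM in WT, whereas the 5 genes matched by the Unc5 name summed to 4.12, 4.46 and 4.14 FPKM in HSA-NRTN and to 8.98, 7.67 and 7.41 FPKM in WT. Ntn4, a netrin of basement membranes that binds laminin, lies at chr10:93640681-93747207 and had 8.83, 9.94 and 10.3 FPKM in HSA-NRTN and 3.41, 3.85 and 4.38 FPKM in WT. Its means were 9.68 ± 0.751 and 3.88 ± 0.487 FPKM (SD, n = 3 each), 2.49-fold apart (log2 change 1.13 ± 0.09, limma, adjusted p = 4.87e-05; 0.88 with the size factors). Ntn1, the secreted netrin that attracts axons through Dcc, did not pass the test although its groups lay just apart, with 4.23, 4.95 and 4.70 FPKM in HSA-NRTN and 3.75, 3.59 and 4.19 FPKM in WT (0.22 ± 0.08, limma, adjusted p = 0.0561; -0.03 with the size factors). It was called without HSA-NRTN replicate 1 (adjusted p = 0.0317) and without WT replicate 3 (adjusted p = 0.0436). The ratio of Ntn4 to Ntn1 was 2.09, 2.01 and 2.18 in HSA-NRTN and 0.910, 1.07 and 1.05 in WT.

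Unc5a, a netrin receptor that mediates repulsion, lies at chr13:54949411-55006018 and had 2.13, 2.12 and 2.37 FPKM in HSA-NRTN and 7.50, 6.13 and 5.90 FPKM in WT. The means of 2.21 ± 0.14 and 6.51 ± 0.864 FPKM (SD, n = 3 each) put WT 2.95-fold higher (log2 change -1.22 ± 0.09, limma, adjusted p = 3.28e-05; -1.45 with the size factors). Unc5b, the member of that family found in endothelium, had 1.97, 2.29 and 1.74 FPKM in HSA-NRTN and 1.47, 1.53 and 1.48 FPKM in WT, and was called higher in FPKM only (0.26 ± 0.09, limma, adjusted p = 0.0335). Unc5a was thus several times Unc5b in WT, with ratios of 5.09, 4.01 and 3.98, while in HSA-NRTN the 2 receptors were at similar levels, with ratios of 1.08, 0.925 and 1.36. Neo1, a further netrin receptor and also the receptor of RGM proteins, did not pass the test (0.01 ± 0.07, limma, adjusted p = 0.88) and was called lower with the size factors (-0.25, adjusted p = 0.0105). It had 7.37, 8.15 and 7.80 FPKM in HSA-NRTN and 7.47, 7.79 and 7.80 FPKM in WT.

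**Figure D4:**
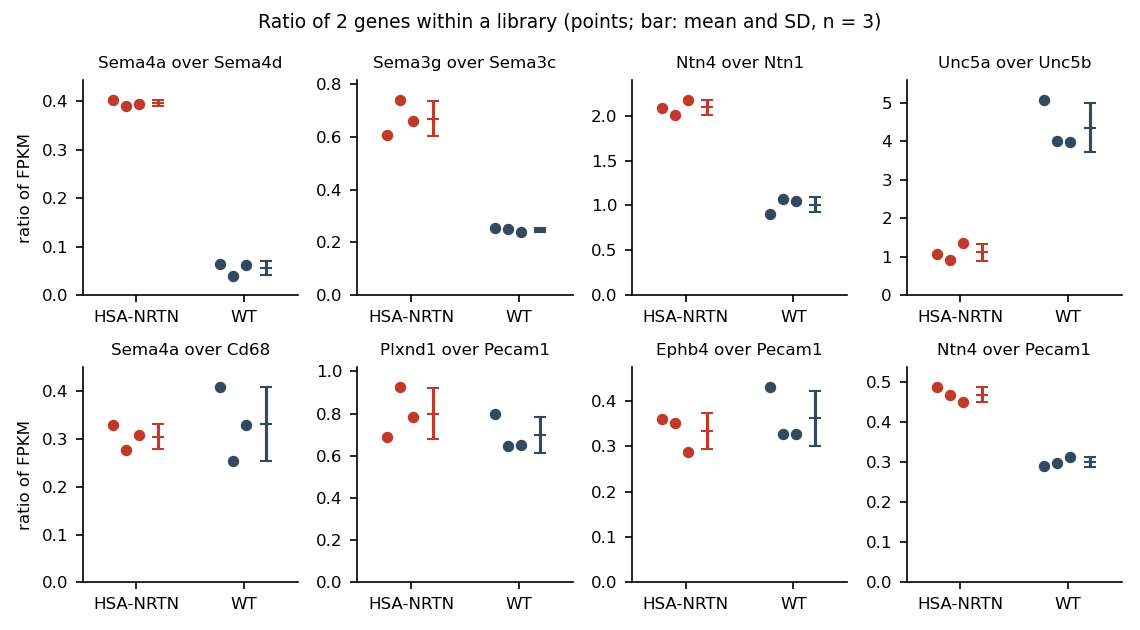
Ratios of FPKM between genes within each library (points) with mean and SD (bars, n = 3), HSA-NRTN left of WT. The 4 ratios between members and that of Ntn4 to Pecam1 separate the groups, while those of Sema4a to Cd68 and of Plxnd1 and Ephb4 to Pecam1 overlap.

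Such ratios within a library do not depend on the scaling. They were chosen after the values had been seen and are a description, and with 3 libraries against 3 an exact permutation test cannot go below p = 0.10.

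Of the B-class ephrins, Efnb1 and Efnb2 rose, as did Ephb4, a receptor of Efnb2. Efnb3 was under the tested level and not called in limma-voom (log2 change -0.24, adjusted p = 0.57). Efnb1, a transmembrane ephrin, had 4.03, 4.54 and 4.06 FPKM in HSA-NRTN and 2.51, 2.42 and 2.70 FPKM in WT (0.55 ± 0.08, limma, adjusted p = 0.000586; 0.33 with the size factors). Efnb2, the ephrin of arterial endothelium, had 2.36, 2.54 and 2.79 FPKM in HSA-NRTN and 1.63, 1.58 and 1.64 FPKM in WT (0.44 ± 0.08, limma, adjusted p = 0.00177; 0.24 with the size factors). Ephb4, its receptor on veins, had 6.52, 7.49 and 6.56 FPKM in HSA-NRTN and 5.09, 4.22 and 4.6 FPKM in WT (0.48 ± 0.09, limma, adjusted p = 0.0023; 0.23, adjusted p = 0.0397 with the size factors). No groups overlapped for these 3 genes. The authors' deposited table gives adjusted p-values of 0.00773 for Efnb1, 0.0164 for Efnb2 and 0.0606 for Ephb4. Efna1, the most abundant ephrin, had 8.62, 6.51 and 5.99 FPKM in HSA-NRTN and 4.66, 5.44 and 5.18 FPKM in WT, without overlap (0.39 ± 0.12, limma, adjusted p = 0.0268). Epha2, a receptor of ephrin-A ligands, was not called, at 0.921, 1.69 and 1.14 FPKM in HSA-NRTN and 0.718, 0.794 and 1.20 FPKM in WT (0.24 ± 0.15, limma, adjusted p = 0.201).

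Among the Eph members under 1 FPKM, Epha10 was read in HSA-NRTN libraries alone and Epha7 was lower. Epha10, an Eph receptor whose kinase domain lacks activity, had 69, 62 and 58 reads in HSA-NRTN (0.335, 0.171 and 0.263 FPKM) and 0 in each WT library. Against a floor of 3 reads over the WT group, it was at least 54.2-fold higher in HSA-NRTN, and the authors' deposited table gives it an adjusted p of 2.75e-09. Epha7 was lower in limma-voom (-1.21, adjusted p = 0.00197), at 0.156, 0.105 and 0.162 FPKM in HSA-NRTN and 0.284, 0.225 and 0.241 FPKM in WT. Efna3 was barely detected, with 1, 0 and 2 reads in HSA-NRTN and 0 in each WT library, so no difference was detectable at this depth. In a gene of 1 kilobase, 3 reads correspond to 0.0597 to 0.109 FPKM, which covers counting error only.

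Of the Slits and Robos, Slit3 and Robo4 were tested and only Robo4 was called, in FPKM alone. Slit3, the most abundant Slit, had 2.54, 4.21 and 3.67 FPKM in HSA-NRTN and 3.03, 2.87 and 3.29 FPKM in WT, which overlap (0.12 ± 0.14, limma, adjusted p = 0.478; -0.11 with the size factors). Without HSA-NRTN replicate 1 it was called higher (adjusted p = 0.0312). Robo4, the endothelial Robo, had 3.64, 5.30 and 5.46 FPKM in HSA-NRTN and 3.18, 2.67 and 3.64 FPKM in WT. The lowest HSA-NRTN library and the highest WT library were level (0.47 ± 0.14, limma, adjusted p = 0.0238; adjusted p = 0.146 with the size factors). Robo1, under 1 FPKM, was higher in limma-voom (0.50, adjusted p = 0.038).

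The 5 calls seen in FPKM only were those of Efna1, Robo4, Sema4c, Sema6a and Unc5b. Efna1 lost its call with the size factors (adjusted p = 0.444), without WT replicate 1 (adjusted p = 0.0772) and without WT replicate 3 (adjusted p = 0.0549). Robo4 lost its call without HSA-NRTN replicate 2 (adjusted p = 0.0838) or 3 (adjusted p = 0.083) and without WT replicate 1 (adjusted p = 0.0517) or 2 (adjusted p = 0.0797). Unc5b lost its call without any library other than HSA-NRTN replicate 3 (adjusted p from 0.0546 to 0.118), and Sema6a without HSA-NRTN replicate 2 or 3 or WT replicate 2 (adjusted p from 0.0524 to 0.0629). Sema4c kept its call without each library. Sema6a had 1.77, 2.00 and 2.02 FPKM in HSA-NRTN and 1.43, 1.43 and 1.44 FPKM in WT (0.27 ± 0.07, limma, adjusted p = 0.0162; adjusted p = 0.33 with the size factors).

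The 36 members below the tested level averaged 0.00134 to 0.801 FPKM, and 11 of them were under 0.1 FPKM. Limma-voom reached 33 of them and called 7 higher (Epha10, Plxna3, Plxnb1, Plxnb3, Plxnc1, Robo1 and Sema4b) and 2 lower (Epha7 and Sema3a). Of all 19634 genes in that fit, 19.1% were called higher and 18.4% lower (37.5% together), so these calls do not set the members apart. Efna3, Epha5 and Unc5d were too low for that test. The authors' deposited table gives an adjusted p under 0.05 to 6 higher and 2 lower of the 32 that have one, beside 18.0% higher and 17.8% lower of all 18953 genes with one (35.8% together).

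Genes that work with these ligands and receptors showed no common direction that held under both scalings. Of 27 measured co-receptors and alternative partners, 16 were tested, and 5 rose and 2 fell in FPKM, against 2 and 7 with the size factors. That was 43.8% called, under the 53.3% of all genes, and 56.2% with the size factors, near the 51.0% of all genes. Without HSA-NRTN replicate 1, 8 of them were higher in FPKM, and without HSA-NRTN replicate 2 or 3 or WT replicate 1 or 2, 3 were. Those that fell were Gpc1, a heparan sulphate proteoglycan, and Ryk, a Wnt receptor. Gpc1 had 48.4 ± 4.26 FPKM in HSA-NRTN and 70.4 ± 4.59 FPKM in WT (SD, n = 3 each; log2 change -0.53, limma, adjusted p = 0.00127). Ryk had 14.3 ± 0.96 FPKM in HSA-NRTN and 19.1 ± 0.329 FPKM in WT (-0.40, limma, adjusted p = 0.00195). Flrt2, a ligand of Unc5 receptors, was higher in FPKM only (0.43, limma, adjusted p = 0.00671; adjusted p = 0.0789 with the size factors).

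Of 62 genes that carry guidance signals inside the cell, 51 were tested, and 31 rose and 4 fell in FPKM, against 15 and 14 with the size factors. That was 68.6% called, beside 53.3% of all genes, and 56.9% with the size factors, near the 51.0% of all genes. Rac2, Fes, Vav2, Vav3 and Mical1 passed the filter only through their HSA-NRTN level and count among the 31. The 5 genes taken by smallest p included Rac2, the Rac GTPase of blood cells, at 5.57 ± 0.337 FPKM in HSA-NRTN and 0.399 ± 0.0905 FPKM in WT (2.23, limma, adjusted p = 1.42e-06), and Fes, a kinase of myeloid cells, at 4.92 ± 0.475 FPKM in HSA-NRTN and 0.861 ± 0.142 FPKM in WT (1.67, limma, adjusted p = 6.44e-06). Cfl1, the non-muscle cofilin that cuts actin filaments, had 34.5 ± 1.87 FPKM in HSA-NRTN and 13.6 ± 1.17 FPKM in WT (1.28, limma, adjusted p = 1.08e-05). Dpysl3, of the CRMP family that relays semaphorin signals, had 7.04 ± 0.233 FPKM in HSA-NRTN and 2.62 ± 0.4 FPKM in WT (1.16, limma, adjusted p = 4.08e-05). Mical2, an enzyme that oxidises actin, fell, with 4.32 ± 0.555 FPKM in HSA-NRTN and 10.4 ± 0.746 FPKM in WT (-1.11, limma, adjusted p = 5.39e-05).

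Markers of the cells in the muscle moved alongside these genes, and in whole-muscle RNA fewer cells of a type and less RNA per cell cannot be told apart. Counts for the marker lists stand beside 41.6% of all genes higher and 11.7% lower in FPKM, and 21.1% and 29.9% with the size factors. All 10 macrophage markers were called higher, Itgam among them after passing the filter only through its HSA-NRTN level, and their summed FPKM lay between 365 and 390.1 in HSA-NRTN and between 60.6 and 82.5 in WT. The 7 dendritic cell markers summed to 20.5 to 23.6 FPKM in HSA-NRTN and 2.16 to 2.91 FPKM in WT, with 3 of 3 tested called higher (2 with the size factors), of which Itgax was tested only through its HSA-NRTN level. Endothelial markers, 10 of 12 higher in FPKM and 5 with the size factors, summed to 158 to 193 FPKM in HSA-NRTN and 116 to 130.0 FPKM in WT. Fibroblast markers (8 of 8 higher, 7 with the size factors) summed to 1136 to 1324 FPKM in HSA-NRTN and 650.0 to 722 FPKM in WT. Schwann cell markers (8 of 8 tested higher, 3 with the size factors, with S100b among those tested only through their HSA-NRTN level) summed to 61.1 to 78.6 FPKM in HSA-NRTN and 43.5 to 44.5 FPKM in WT. Of the 10 neuronal markers listed, 9 were analysed, without Chat. They all averaged under 1 FPKM over the 6 libraries, with sums of 1.88 to 2.13 FPKM in HSA-NRTN and 0.938 to 1.19 FPKM in WT. Arterial and venous markers (4 of 6 tested higher, 2 with the size factors) had a ratio of HSA-NRTN to WT means of 1.39 (1.13 with the size factors). Satellite cell markers (3 of 4 higher and 1 lower, 2 and 1 with the size factors, with Myf5 and Vcam1 tested only through their HSA-NRTN level) had a ratio of 1.23 (1.0 with the size factors). Adipocyte markers (5 of 6 higher, 2 higher and 1 lower with the size factors) had a ratio of 1.76 (1.43 with the size factors), and tendon markers (2 of 4 higher, 1 higher and 1 lower with the size factors) of 1.38 (1.12 with the size factors). B and T cell markers, all averaging under 1 FPKM, had a ratio of 3.46 (2.81 with the size factors). Smooth muscle and pericyte markers (6 of 8 higher, 2 higher and 1 lower with the size factors) had a ratio of 0.962 (0.782 with the size factors). In FPKM their sums overlapped, at 939 to 1056 in HSA-NRTN and 1021 to 1061 in WT. Des dominates these sums, and the list shares that gene with the fibre list. Without Des the sums were 172, 195 and 217 FPKM in HSA-NRTN and 131, 133 and 155 FPKM in WT, which do not overlap. Both outcomes turn with the size factors, under which the sums with Des separate and those without it overlap. Of the 10 fibre markers, 2 were higher and 5 lower (1 and 7 with the size factors). All 25344 genes measured had reads in at least 1 library, so no marker analysed could be at 0 in all of them. The part of these lists in the results above was not tested.

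**Figure D5:**
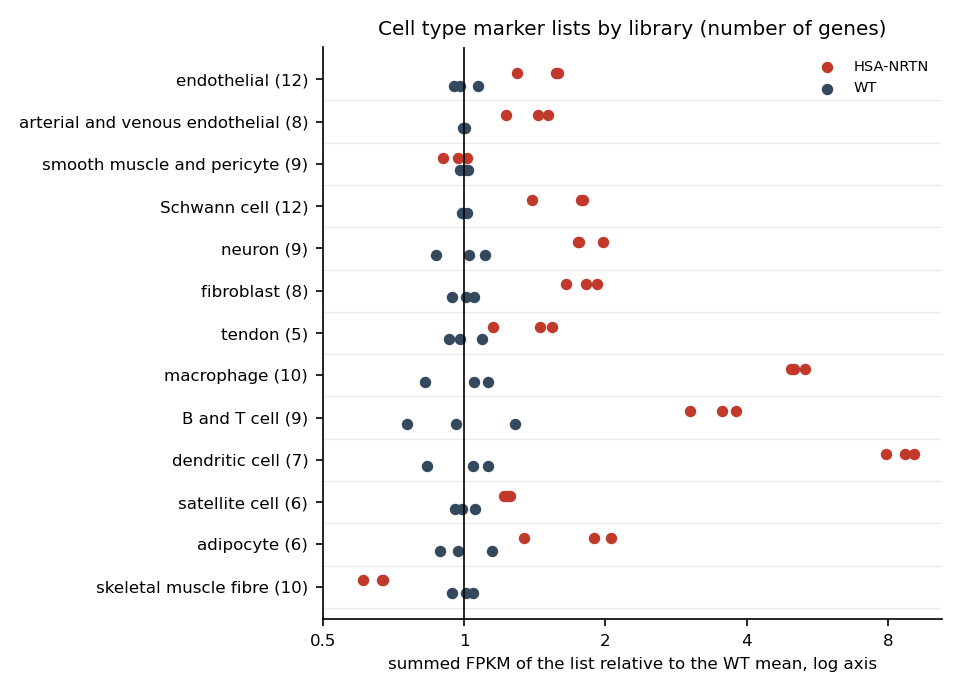
Summed FPKM of 13 cell type marker lists in each library (points), relative to the WT mean on a log axis, HSA-NRTN above WT. By ratio of means, dendritic cell and macrophage lists stand highest at 8.57 and 5.11 and the skeletal muscle fibre list lowest at 0.65.

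Set against a marker within each library, some members separated the groups and others overlapped. Relative to Pecam1, an endothelial adhesion molecule, Ntn4 stood at 0.487, 0.466 and 0.45 in HSA-NRTN and 0.289, 0.297 and 0.312 in WT, without overlap. The same ratio overlapped between groups for Plxnd1, Robo4, Ephb4, Efnb2 and Sema3g, for instance 0.687, 0.927 and 0.782 in HSA-NRTN and 0.799, 0.646 and 0.651 in WT for Plxnd1. Relative to Cd68, a macrophage protein, Sema4a overlapped, at 0.329, 0.277 and 0.308 in HSA-NRTN and 0.409, 0.254 and 0.330 in WT, and so did Plxnc1. Plxnb2 and Sema7a did not, and both were lower relative to Cd68 in HSA-NRTN, with Plxnb2 at 0.390, 0.404 and 0.453 in HSA-NRTN and 1.11, 1.11 and 1.07 in WT. Pecam1 and Cd68 are single markers of their lists, and other markers could give other outcomes. In FPKM, log2 changes of the endothelial markers ran from 0.19 (Cldn5) to 0.87 (Eng), with Pecam1 at 0.64. Those of the macrophage markers ran from 1.26 (Cd163) to 2.79 (Lyz2), with Cd68 at 1.87.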

How the data were processed

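Muscles were snap-frozen and 1 µg of their total RNA entered Illumina TruSeq libraries, per the labels' protocols. The submitters' processing notes name HISAT2, HTSeq, DESeq2, Cufflinks, Cuffdiff and the build GRCm38, without versions or settings. The table deposited for the series held FPKM for each library. Further deposited columns were the authors' mean signal of a gene, log2 fold changes with errors, test score and p-values.

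The columns of the table do not name FPKM, so the unit was checked from the values. With the authors' mean signal, the 127467 values above 0 came out as whole numbers of reads in 100% of cases (tolerance 0.01 read), which also gave the size factors. Libraries of a group were no closer than a chi-square per degree of freedom of 11.2 (highest 30.7), beyond sampling noise, and each counted as 1 replicate. Reads per library and the level that 3 reads allow stand in the results, and limit precision for genes under 1 FPKM.

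The test was limma 3.58.1 (R 4.3.3, trended variance) on log2(FPKM + 1), a scale that understates changes of low genes. Genes had to average 1 FPKM or more. It was run without a block, and with Benjamini-Hochberg adjustment over all genes tested. Every adjusted p without another source is from this two-sided test. It was also run on simulated reads in which few genes were changed, unlike in these data. That run cannot show how the scaling affects the calls made here. Alternatives were size-factor scaling, a pseudocount of 0.1, no filter, a replicate block, limma-voom on recovered reads, and leaving out each library. Limma-voom with at least 10 reads over the 6 libraries was added after the data were seen.

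The genes named comprise, among the called members, the 6 at the top and the 6 at the bottom of the log2 changes, the most abundant member of each subfamily, 8 genes always (Dcc and Epha8 among them), Nrtn as the check, members whose call turned with the scaling, and up to 5 called genes from each of 2 pathway lists. Other members are named after their values were seen. The members and the lists, including 13 cell type marker lists, were chosen with earlier results of these data known. Promoter windows are from RefSeq (GRCm38.p6), which held 54 of the 63 members.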

Additional observations from a re-analysis of the deposited data

How the results depend on the processing

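Over all genes, 4476 were higher and 1255 lower in FPKM, against 2264 and 3218 with the size factors and 2351 and 3303 with limma-voom on recovered reads. Limma-voom with the low filter, added after the data were seen, tested 19634 genes instead of 10755 and called 3746 higher and 3610 lower. Members called lower were 3 in FPKM and 5 with limma-voom, of 27 tested. The low filter tested 60 members and called 18 higher and 7 lower. Guidance partners called higher were 5 in FPKM, 2 with the size factors and 2 with limma-voom, of 16 tested. Those called lower were 2 in FPKM, 7 with the size factors and 7 with limma-voom. The low filter tested 26 partners and called 4 higher and 8 lower. Signalling genes called higher were 31 in FPKM, 15 with the size factors and 16 with limma-voom, of 51 tested. Those called lower were 4, 14 and 15 in the same order. The low filter tested 62 signalling genes and called 21 higher and 15 lower. Neo1 differed by 0.01 in FPKM, by -0.25 with the size factors and by -0.28 in both limma-voom fits. Leaving out each library in turn gave 13 to 19 members higher and 3 lower each time, 3 to 8 partners higher and 2 to 3 lower, 24 to 32 signalling genes higher and 3 to 4 lower, and 3560 to 4600 genes higher and 1007 to 1194 lower. Same-numbered libraries of the 2 groups deviated together with correlations of 0.08, -0.17 and 0.19, so the numbers were not taken to pair libraries. With a replicate block, 15 members were higher and 3 lower, 4309 genes were higher and 1212 lower, and Efna1 lost its call (adjusted p = 0.0567, limma). The pseudocount of 0.1 changed no call among the named genes, no filter lost those of Efna1, Robo4 and Unc5b, and the cause of the other shifts was not tested. Apart from scaling, 3 libraries a group and few reads in genes under 1 FPKM limit what could be called.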
